A study of Homo sapiens with 24 samples.

Results

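The genes described here are ALOX15 and 7 further genes of the lipoxygenase and leukotriene pathway: the arachidonate lipoxygenases ALOX15B, ALOX12 and ALOX5, the 5-lipoxygenase activating protein ALOX5AP, the hydrolase LTA4H, and the cysteinyl leukotriene receptors CYSLTR1 and CYSLTR2. They were chosen by symbol, taking the first row of each symbol, and all 8 were found among the 36468 rows of the count table and passed its filter on low counts. RNA was sequenced from sensory neuron cultures made from H9WAO9 cells, a human pluripotent stem cell line, labelled wild type. The cells spent 12 days as vagal neural crest, 4 days as spheroids and 6 days in differentiation medium before they matured. The 24 libraries were 4 groups of 6, with 1 library of each group in each of 6 batches of differentiation. Vehicle cultures received BSA in PBS, TGF-β cultures received 2 ng/ml TGF-β, and IL-4+IL-13 cultures received 10 ng/ml IL-4 with 3 ng/ml IL-13, each for 5 days. The fourth group received IL-6, for which the labels give neither a concentration nor a duration. All groups came from the same line, so the batches repeat the differentiation and not the genetic background, and whole cultures were sequenced, which held neurons and other cells.

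Lipoxygenases add oxygen to arachidonic acid and other polyunsaturated fatty acids. ALOX5, helped by ALOX5AP, makes leukotriene A4, which LTA4H turns into leukotriene B4 and LTC4S turns into leukotriene C4, the parent of the cysteinyl leukotrienes that act on CYSLTR1 and CYSLTR2. ALOX15 makes 15-HETE and related lipid mediators, and in monocytes and airway epithelium it is a well known target of IL-4 and IL-13 through the transcription factor STAT6. Cysteinyl leukotrienes act on airway smooth muscle, leukocytes and sensory nerves, and their receptors are drug targets in asthma.

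The libraries held 33342682 to 39817784 counts each, and the 4 groups covered overlapping depths. All 10 neuronal markers that were looked up had counts in every group, with a summed level of 1206 to 5804 CPM (counts scaled to library size). Markers of fibroblasts or other mesenchymal cells summed to 3428 to 14236 CPM in the same libraries. The batch 1 libraries had the lowest neuronal sums, 1206 to 2105 CPM, and the highest epithelial sums, 544 to 1019 CPM. The Vehicle libraries of batches 2 and 4 stood apart. The deviations of the Vehicle library of batch 2 correlated with those of the other groups of batch 4 (mean r = 0.43) more than with those of its own batch (0.036). Those of the Vehicle library of batch 4 correlated with batch 2 (0.40) more than with its own batch (0.15). The TGF-β library of batch 4 correlated more with batch 3 (0.56) than with its own batch (0.39), as did the IL-4+IL-13 library of batch 4 (0.52 and 0.31). The batches were used as labelled, and the results below were also computed without either Vehicle library, without both, and with the batch numbers of the 2 exchanged. Whether the numbers had been exchanged was not tested.

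ALOX15, CYSLTR1 and CYSLTR2 rose with IL-4+IL-13, and these 3 of the 8 genes were the only ones called in any of the 3 comparisons with Vehicle by edgeR's quasi-likelihood test. The CYSLTR2 call ended in most fits that left out a batch, as given below. A call required a Benjamini-Hochberg adjusted p under 0.05 over all 29377 rows tested together with an absolute log2 fold change above 1. Of all rows tested, 0.371% were called with IL-4+IL-13, and 0.228% were called as higher. No gene of the 8 was called as lower with IL-4+IL-13, where 0.143% of rows were. The median log2 fold change of the 8 genes was -0.14, beside -0.0077 over all rows tested. Under TGF-β, 0 of the 8 genes were called in either direction, against 0.143% of all rows, and 2 of the 8, CYSLTR1 and ALOX5AP, had an unadjusted p under 0.05, as 7.29% of all rows did. With IL-4+IL-13, 4 of the 8 had such a p, the 3 called genes and ALOX15B, as 9.1% of all rows did. Under IL-6, 0 of the 8 genes and 0% of all rows were called by edgeR, although 1400 rows, none of them from the 8 genes, had an unadjusted p under 0.05. DESeq2, which called 1.02%, 0.858% and 0.528% of all rows with IL-4+IL-13, TGF-β and IL-6 (155 rows for IL-6), called the same 3 genes with IL-4+IL-13, CYSLTR1 under TGF-β and none of the 8 under IL-6. The 3 comparisons share the 6 Vehicle libraries. In whole cultures, fewer cells of a type and less RNA per cell cannot be told apart.

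**Figure D1:**
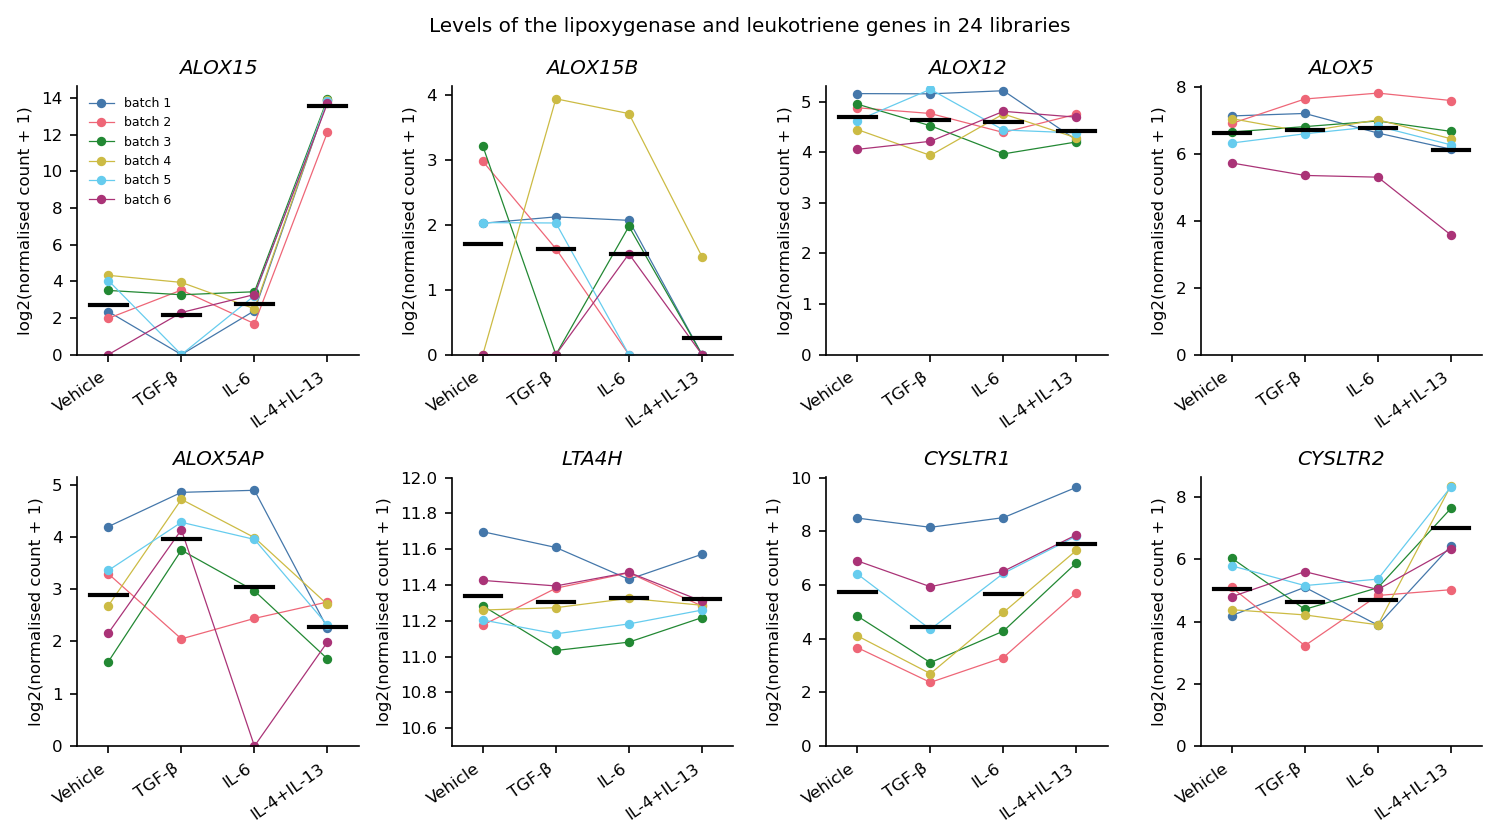
Levels of the 8 genes as log2(normalised count + 1) in the 24 libraries by group, with a line for each batch of differentiation and black bars for the group means (n = 6 each). The axis of LTA4H does not start at 0. ALOX15 in the 6 IL-4+IL-13 libraries lies between 12.13 and 13.95, far above the other 18 libraries, which lie at or below 4.32.

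ALOX15, on chromosome 17 (4630919 to 4641678, GRCh38.p14), has 14 exons in its canonical transcript, and no other annotated gene overlaps it. In the Vehicle libraries of batches 1 to 6 it had 4, 3, 10, 21, 15 and 0 counts. The TGF-β libraries of those batches held 0, 10, 9, 13, 0 and 4 counts, and the IL-6 libraries 4, 2, 10, 5, 8 and 9. The IL-4+IL-13 libraries held 15875, 4679, 14524, 16617, 14739 and 13505 counts. The lowest IL-4+IL-13 library was thus far above every library of the other 3 groups, which overlapped one another. The group mean was 8.62 ± 7.54 normalised counts in Vehicle and 13091 ± 4292 with IL-4+IL-13 (SD, n = 6 each). The fitted log2 fold change was 10.58 (SE 0.43, adjusted p = 1.279e-10), higher in 6 of 6 batches, and its p was the smallest of all rows tested. The within-batch difference ran from 9.58 in batch 4 to 13.71 in batch 6, where the Vehicle library had 0 counts. Without the Vehicle library of batch 2, the log2 fold change was 10.56 (adjusted p = 9.538e-10), without that of batch 4 it was 10.92, and with their batch numbers exchanged it was 10.48 (adjusted p = 2.717e-09). With the exchange ALOX15 was still higher in 6 of 6 batches, by 7.81 or more. The size of this fold rests on a Vehicle group with 53 counts in all.

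In TGF-β and IL-6 cultures ALOX15 differed from Vehicle by less than the spread between batches. The log2 fold change was -0.43 (SE 0.67, adjusted p = 0.969) under TGF-β and -0.41 (SE 0.66, adjusted p = 0.928) under IL-6. Direct comparisons gave a log2 fold change of 11.01 for IL-4+IL-13 against TGF-β (SE 0.44, adjusted p = 1.218e-10). Against IL-6 it was 10.99 (SE 0.44, adjusted p = 1.154e-10). In both, ALOX15 was higher in 6 of 6 batches.

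Per kilobase of canonical transcript, ALOX15 moved from the seventh place among the 8 genes in Vehicle to the first with IL-4+IL-13. Its median was 2.67 normalised counts per kilobase in Vehicle, 2.32 under TGF-β, 2.39 under IL-6 and 5477 with IL-4+IL-13. LTA4H, the first in the other 3 groups, had a median of 1165 per kilobase with IL-4+IL-13, and its range did not overlap that of ALOX15. Among 19257 genes with a transcript length, ALOX15 ranked 14909 to 16607 in the Vehicle libraries by level per kilobase and 260 to 1267 with IL-4+IL-13. Of the summed level per kilobase of the 6 lipoxygenase genes, ALOX15 made up 0% to 4.49% in Vehicle and 87.7% to 98.7% with IL-4+IL-13. That sum takes both ALOX5 rows, whereas the places among the 8 genes take only its first row.

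The markers of blood cells that are known to carry ALOX15 were at 0 for some genes and well detected for others. Among 9 leukocyte markers, TYROBP had 0 counts in all 24 libraries and AIF1 had 0 in all TGF-β, IL-6 and IL-4+IL-13 libraries. The leukocyte phosphatase PTPRC (CD45) had 162 to 1303 counts in Vehicle and 252 to 1011 with IL-4+IL-13, the lysosomal protein CD68 had 192 to 1413 and 220 to 704, and the receptor CSF1R had 61 to 506 and 29 to 196. CD14 and LYZ had 14 counts or fewer in Vehicle and with IL-4+IL-13. The summed level of the 9 was 14.1 to 69.8 CPM in Vehicle, 16.3 to 68.2 under TGF-β, 17.5 to 55.7 under IL-6 and 17.3 to 42.2 with IL-4+IL-13. Of the 6 eosinophil markers, CLC, PRG3, SIGLEC8 and CCR3 had 0 counts in all libraries, and the summed level of the list stayed at or below 1.24 CPM. None of the 7 leukocyte and 2 eosinophil markers that passed the count filter was called in any comparison with Vehicle, nor was any marker of neurons, mesenchymal cells, mast cells, platelets, endothelium or pluripotent cells.

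Of the epithelial markers, 1 was called with IL-4+IL-13, as lower. CDH1, the E-cadherin of epithelial junctions, fell by 1.89 on the log2 scale with IL-4+IL-13 (SE 0.34, adjusted p = 0.00957), in 6 of 6 batches, and the other 6 of the 7 epithelial markers were not called. Its counts were 63 to 425 in Vehicle and 14 to 150 with IL-4+IL-13, and the ranges overlapped. The summed epithelial level was 285 to 895 CPM in Vehicle and 222 to 1019 under TGF-β. It was 256 to 754 under IL-6 and 226 to 544 with IL-4+IL-13, where ESRP1 had 0 counts. The medians were close, at 342, 340, 362 and 357 CPM in that order of groups. In batches 2 to 6 the sums were 285 to 413 CPM in Vehicle and 226 to 417 with IL-4+IL-13. The part of these cells in the results was not tested.

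The other lipoxygenases did not follow ALOX15. ALOX15B, a 15-lipoxygenase encoded by a separate gene on chromosome 17 (8039059 to 8049134), was near the limit of detection. Its counts in batches 1 to 6 were 3, 7, 8, 0, 3 and 0 in Vehicle, and 0, 0, 0, 2, 0 and 0 with IL-4+IL-13. Vehicle, TGF-β and IL-6 held 21 counts each in all, and IL-4+IL-13 held 2, with 5 of 6 libraries at 0. The ratio of IL-4+IL-13 to Vehicle, scaled for depth, was 0.0964, with an exact 95% binomial interval of 0.0110 to 0.394 that covers counting error only. The fitted test did not call ALOX15B (log2 fold change -3.74, adjusted p = 0.337), and the groups overlapped.

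ALOX12, the platelet 12-lipoxygenase, had 34, 29, 29, 23, 23 and 18 counts in the Vehicle libraries and 19, 27, 16, 20, 20 and 25 with IL-4+IL-13. The log2 fold change was -0.27 with IL-4+IL-13 (SE 0.25, adjusted p = 0.801), -0.034 under TGF-β and -0.075 under IL-6. The gene lies on chromosome 17 (6996049 to 7010754), where the antisense gene ALOX12-AS1 overlaps it. Whether reads were counted by strand is not given in the sources used here, so reads of both genes cannot be told apart. Of the 5 platelet markers, PF4 and PPBP had 0 counts in all libraries, while the integrin ITGA2B had 112 to 198 counts in Vehicle and 113 to 176 with IL-4+IL-13, and GP1BA had 9 to 30 and 3 to 21. The list summed to 3.65 to 5.51 CPM in Vehicle, 2.69 to 5.04 under TGF-β, 2.78 to 5.71 under IL-6 and 3.42 to 5.43 with IL-4+IL-13. The part of these cells in the ALOX12 counts was not tested.

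ALOX5, the 5-lipoxygenase that starts leukotriene synthesis, lies on chromosome 10 (45374216 to 45446117), overlapped by LOC102724323, and has 2 rows in the count table. The first carries the suffixed label gene-ALOX5-2 and the second the plain label gene-ALOX5. Where the suffixed copy lies is not given in the count table. The first row had 137, 122, 97, 146, 77 and 60 counts in Vehicle, 132, 190, 117, 91, 94 and 41 under TGF-β, and 92, 203, 129, 139, 109 and 40 under IL-6. The IL-4+IL-13 libraries held 74, 201, 93, 94, 77 and 11 counts. The groups overlapped, and batch 6 of IL-4+IL-13 was the lowest of all libraries. The log2 fold change with IL-4+IL-13 was -0.46 (SE 0.24, adjusted p = 0.603), 0.04 under TGF-β and 0.095 under IL-6. In the first row the IL-4+IL-13 library was lower than its TGF-β and IL-6 partners in each of the 6 batches. Neither difference passed (log2 fold change -0.50, adjusted p = 0.407, and -0.55, adjusted p = 0.935). The second row, with 60 to 306 counts per library, did not share the low value: in batch 6 of IL-4+IL-13 it had 60 counts, beside 65 in Vehicle. Nor did it share the pattern of 6 batches: with IL-4+IL-13 it was lower than TGF-β in 5 of 6 and lower than IL-6 in 2 of 6. Reads of the rows may have been split between them in counting.

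ALOX5AP, on chromosome 13 (30713485 to 30764426) and overlapped by LOC124903146, presents arachidonic acid to ALOX5. Its counts in batches 1 to 6 were 17, 9, 2, 6, 9 and 4 in Vehicle, 25, 3, 13, 23, 18 and 17 under TGF-β, and 4, 6, 2, 6, 4 and 3 with IL-4+IL-13. The TGF-β library was the higher of the pair in 5 of 6 batches against both Vehicle and IL-4+IL-13, with batch 2 as the exception. Against Vehicle the log2 fold change under TGF-β was 1.24 (SE 0.52, adjusted p = 0.567), and with IL-4+IL-13 it was -0.77 (SE 0.58, adjusted p = 0.734). The direct difference of IL-4+IL-13 against TGF-β was -2.01 (SE 0.56, adjusted p = 0.0591), just short of the threshold. That call changed with the setting: DESeq2 gave an adjusted p of 0.00935, the fit without batch 2 gave 0.0124, the fit without the Vehicle library of batch 2 gave 0.0426, that without the Vehicle libraries of batches 2 and 4 gave 0.0389, and the fit with their batch numbers exchanged gave 0.0359. In the IL-6 group the counts were 27, 4, 7, 16, 14 and 0, with a log2 fold change of 0.45 against Vehicle (SE 0.53, adjusted p = 0.895).

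LTA4H, the enzyme that makes leukotriene B4, varied least among the 8 genes. It lies on chromosome 12 (96000753 to 96043520), overlapped by LOC102723340 and a transfer RNA gene. It had 2292 to 3256 counts in Vehicle, 2185 to 2802 under TGF-β, 2221 to 2943 under IL-6 and 2189 to 3232 with IL-4+IL-13. Its log2 fold changes against Vehicle were -0.043, -0.013 and -0.019, in that order of treatments, each with an SE of 0.06 and none called. Of the 13 other genes of leukotriene synthesis, export and breakdown, 10 passed the count filter and 0 were called in any comparison with Vehicle. LTC4S, which makes leukotriene C4, has 2 rows in the count table, and only the first was read. That row was near the limit of detection, with 3 to 6 counts in Vehicle, 5 to 9 under TGF-β, 3 to 6 under IL-6 and 2 to 13 with IL-4+IL-13. MGST2, a membrane enzyme that can make the same product, had 357 to 614 counts in Vehicle and 268 to 549 with IL-4+IL-13. The leukotriene C4 exporter ABCC1 was also read from the first of 2 rows. That row had 1252 to 2119 counts in Vehicle and 905 to 1580 with IL-4+IL-13 (log2 fold change -0.21, SE 0.11, adjusted p = 0.574). GGT1, which trims leukotriene C4 to D4, had a log2 fold change of -0.36 with IL-4+IL-13 (SE 0.21, adjusted p = 0.642).

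**Figure D2:**
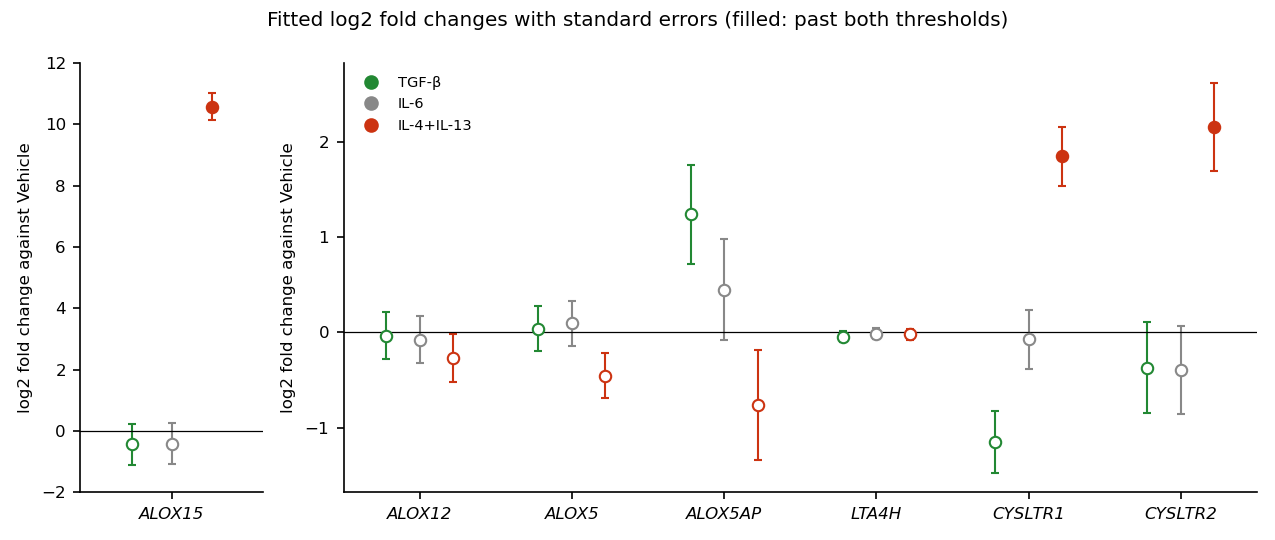
Fitted log2 fold changes against Vehicle with standard errors for ALOX15 (left axis) and 6 other genes (right axis, another scale), by treatment (6 libraries per group). Filled points passed both thresholds: ALOX15 at 10.58, CYSLTR1 at 1.85 and CYSLTR2 at 2.16, all with IL-4+IL-13. ALOX15B is left out because IL-4+IL-13 held 2 counts in all.

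CYSLTR1 and CYSLTR2 are G protein-coupled receptors for leukotrienes C4, D4 and E4. CYSLTR1 lies on chromosome X (78271468 to 78327611) and CYSLTR2 on chromosome 13 (48653929 to 48711226), and no annotated gene overlaps either. The RefSeq promoter windows (GRCh38.p14, 250 bases before to 50 after the gene's start) were searched for the letters of STAT binding sites, TTCNNNNGAA, the spacing that STAT6 is known to prefer, and TTCNNNGAA. Both patterns read the same on either strand. Of the 8 genes, 5 matched an entry by symbol (ALOX12, ALOX5AP, LTA4H, CYSLTR1 and CYSLTR2), and ALOX15, ALOX15B and ALOX5 did not. The 250 bases before the start are shown for the 2 receptors, 5′ to 3′ on the gene's strand, with the match to TTCNNNNGAA in capitals. They are chrX:78327612-78327861 on the minus strand and chr13:48653679-48653928 on the plus strand.
CYSLTR1: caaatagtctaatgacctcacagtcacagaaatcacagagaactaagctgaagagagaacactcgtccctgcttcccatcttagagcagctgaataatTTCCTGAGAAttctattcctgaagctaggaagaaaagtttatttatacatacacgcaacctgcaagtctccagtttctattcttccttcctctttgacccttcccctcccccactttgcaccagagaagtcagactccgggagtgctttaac
CYSLTR2: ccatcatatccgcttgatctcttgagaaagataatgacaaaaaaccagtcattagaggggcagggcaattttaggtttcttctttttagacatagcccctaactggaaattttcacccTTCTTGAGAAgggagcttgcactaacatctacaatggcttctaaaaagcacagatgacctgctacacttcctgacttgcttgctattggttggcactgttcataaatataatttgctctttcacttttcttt
The match TTCCTGAGAA began 152 bases before the start of CYSLTR1, and TTCTTGAGAA began 132 bases before that of CYSLTR2. The windows of ALOX12, ALOX5AP and LTA4H held 0 matches to either pattern. TTCNNNNGAA occurred in 6.44% of the 35116 promoter windows of this length and TTCNNNGAA in 7.66%. CYSLTR2 also held TTCTTTGAA, a match to the shorter pattern that began 6 bases before its start and ran across it. A match describes the letters and is not evidence of binding.

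CYSLTR1 rose in every batch with IL-4+IL-13, from levels that differed widely between batches. In batches 1 to 6 it had 354, 12, 27, 18, 82 and 137 counts in Vehicle and 852, 54, 104, 170, 229 and 236 with IL-4+IL-13. The groups overlapped across batches, while within each batch the IL-4+IL-13 library was the higher. The log2 fold change was 1.85 (SE 0.31, adjusted p = 0.00417), and without the Vehicle library of batch 2 it was 1.83 (adjusted p = 0.00808). Without the Vehicle library of batch 4 it was 1.69 (adjusted p = 0.0109), and with the 2 batch numbers exchanged it was 1.82 (adjusted p = 0.00473), still higher in 6 of 6 batches. The within-batch differences ran from 0.97 in batch 6 to 3.19 in batch 4. The call needed the batch term: without it the log2 fold change was 1.35 with an adjusted p of 1, and a fit of these 2 groups alone gave 1.76 with an adjusted p of 0.112.

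TGF-β moved CYSLTR1 the other way without passing the threshold. The TGF-β libraries held 255, 4, 8, 5, 19 and 62 counts, lower than Vehicle and lower than IL-6 in 6 of 6 batches. The log2 fold change against Vehicle was -1.15 (SE 0.32, unadjusted p = 0.00202, adjusted p = 0.184), and DESeq2 gave -1.19 with an adjusted p of 0.0438. Against IL-6 it was -1.08 (SE 0.32, adjusted p = 0.274). The IL-6 libraries held 344, 8, 19, 33, 83 and 94 counts, close to Vehicle, with a log2 fold change of -0.07 (SE 0.31, adjusted p = 0.979). The direct difference of IL-4+IL-13 against TGF-β was 3.01 (SE 0.33, adjusted p = 3.477e-05), and against IL-6 it was 1.92 (SE 0.31, adjusted p = 0.00299), each in 6 of 6 batches. Without the batch term these direct differences were 2.07 and 1.41, each with an adjusted p of 1.

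Batch 1, where CYSLTR1 had its highest level in each group, was also the batch with the highest epithelial and leukocyte sums in each group. In its Vehicle library the 7 epithelial markers summed to 895 CPM, against 285 to 413 in the other Vehicle batches. The 9 leukocyte markers summed to 69.8 CPM there and to 14.1 to 43.4 in the other Vehicle batches. The 5 endothelial markers summed to 114 CPM in that library, 24.7 to 84.8 in the other Vehicle batches, 16.6 to 74.3 over the TGF-β group, 13.1 to 85.0 over the IL-6 group and 28.6 to 159 over the IL-4+IL-13 group, and no marker of the list was called against Vehicle. Against TGF-β, where CYSLTR1 differed most, the fitted log2 fold changes of all 5 endothelial markers were above 0, and KDR, a receptor of vascular growth factors, was called (1.30, SE 0.27, adjusted p = 0.0116, higher in 6 of 6 batches). In that comparison the mesenchymal collagen COL1A1 (log2 fold change -1.31, SE 0.26, adjusted p = 0.00675) and CDH1 (-1.27, SE 0.33, adjusted p = 0.0457) were called as lower, each in 6 of 6 batches. The other 7 of the 8 mesenchymal markers were not called, and 4 of the 8 were above 0 (median log2 fold change -0.031). The other 6 of the 7 epithelial markers were not called, and 2 of the 7 were above 0 (median -0.048). Neither list thus moved as a whole. The part of these cells in the CYSLTR1 differences was not tested. Without batch 1 the log2 fold change with IL-4+IL-13 was 1.98 (adjusted p = 0.00898).

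CYSLTR2 rose with IL-4+IL-13 in 5 of 6 batches. It had 17, 34, 63, 22, 53 and 31 counts in Vehicle, 30, 8, 21, 16, 34 and 49 under TGF-β, and 13, 25, 34, 15, 39 and 33 under IL-6. Under IL-4+IL-13 it had 91, 33, 183, 360, 325 and 81 counts. Batch 2 alone showed no rise over its Vehicle library (-0.07 on the log2 scale), and its IL-4+IL-13 library overlapped the other groups, whereas the other 5 lay above all 18 libraries of those groups. The log2 fold change against Vehicle was 2.16 (SE 0.46, adjusted p = 0.0330), and without the Vehicle library of batch 2 it was 2.35 (adjusted p = 0.0244). With the batch numbers of the Vehicle libraries of batches 2 and 4 exchanged, batch 2 showed a rise of 0.64 and the count became 6 of 6 batches, with a log2 fold change of 2.16 (adjusted p = 0.0122). Without the Vehicle library of batch 4 the call ended (1.96, adjusted p = 0.0721), as it did without both (2.16, adjusted p = 0.0893). Leaving out batch 1, 3, 4, 5 or 6 kept the log2 fold change between 1.68 and 2.31 but ended the call, with adjusted p-values of 0.132, 0.114, 0.0948, 0.232 and 0.0918, while leaving out batch 2 gave 2.51 (adjusted p = 0.00836). The call also ended without the batch term (adjusted p = 0.182) and in a fit of the 2 groups alone (0.303).

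CYSLTR2 was near Vehicle in the other treatments, with a log2 fold change of -0.37 under TGF-β (SE 0.47, adjusted p = 0.964) and -0.39 under IL-6 (SE 0.47, adjusted p = 0.895). IL-4+IL-13 against TGF-β gave 2.53 (SE 0.48, adjusted p = 0.00409) and against IL-6 2.56 (SE 0.48, adjusted p = 0.0132), each higher in 6 of 6 batches, batch 2 included. The call against TGF-β ended without batch 5 (adjusted p = 0.0531), and that against IL-6 ended without batch 1, 3, 4 or 5 (0.0695, 0.0954, 0.0720 and 0.149), without the batch term (0.0555) and in a fit of the 2 groups alone (0.164). Of all rows, 1.18% were called in the comparison of IL-4+IL-13 with TGF-β, and 3 of the 8 genes. In the comparison with IL-6 the figures were 0.279% of rows and 3 of the 8 genes, and in that of TGF-β with IL-6 0.0306% of rows and 0 of the 8 genes. These direct comparisons use the IL-4+IL-13 libraries again and are not independent of those with Vehicle.

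**Figure D3:**
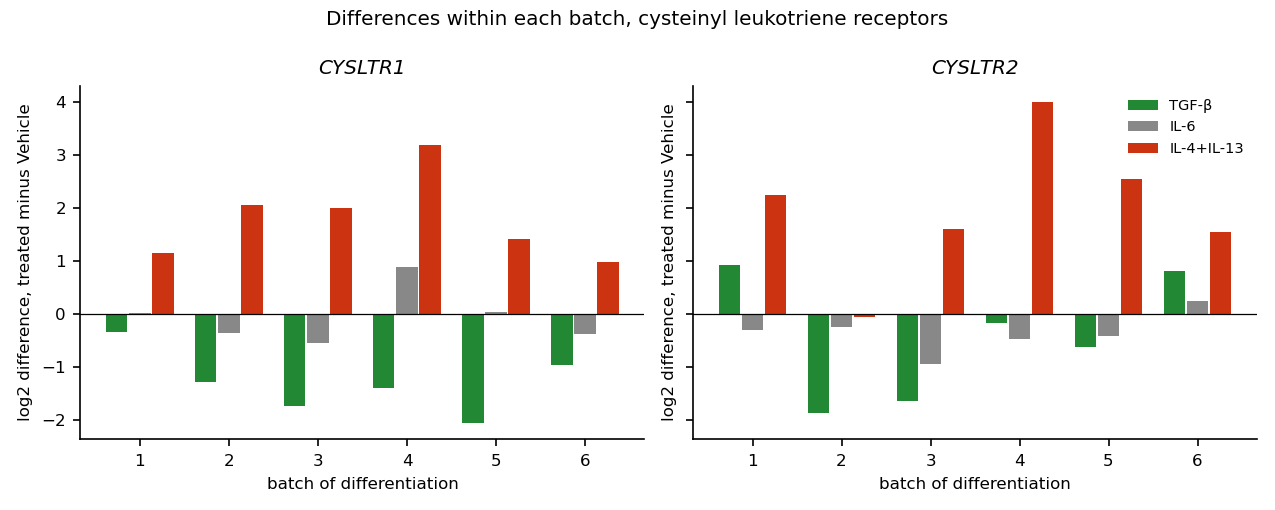
Log2 difference of each treated library from the Vehicle library of its batch (bars, 1 library per bar) for CYSLTR1 and CYSLTR2 in 6 batches of differentiation. For CYSLTR1 the IL-4+IL-13 bars run from 0.97 to 3.19 and all TGF-β bars are below 0. For CYSLTR2 the batch 2 bar of IL-4+IL-13 is -0.07 and the batch 4 bar is 3.99.

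Per kilobase, CYSLTR1 was the higher receptor by median in each group but TGF-β. CYSLTR1 had a median of 20.8 normalised counts per kilobase in Vehicle (4.35 to 134), 5.01 under TGF-β, 21.6 under IL-6 and 71.0 with IL-4+IL-13 (19.2 to 297). CYSLTR2 had medians of 6.32, 5.62, 6.25 and 29.9 in the same order, and the ranges of the receptors overlapped in each group. ALOX5 is placed here by its first row alone. Its second row, with 60 to 306 counts per library under IL-4+IL-13, was left out. The place of ALOX5 with both rows summed was not computed. In Vehicle the 8 genes ran, from the highest median, LTA4H, ALOX5, CYSLTR1, ALOX12, ALOX5AP, CYSLTR2, ALOX15 and ALOX15B. Each neighbour in that order overlapped the next, except that LTA4H (1080 to 1551 per kilobase) lay above ALOX5 (20.7 to 55.5). Under IL-4+IL-13 the order was ALOX15, LTA4H, CYSLTR1, ALOX5, CYSLTR2, ALOX12, ALOX5AP and ALOX15B, where CYSLTR1, ALOX5, CYSLTR2 and ALOX12 each overlapped their neighbours in that run and the remaining neighbours did not.

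The other leukotriene receptors were not called in any comparison with Vehicle. LTB4R, the main receptor of leukotriene B4, had 81 to 137 counts in Vehicle and 52 to 136 with IL-4+IL-13 (log2 fold change -0.25, SE 0.14, adjusted p = 0.637). LTB4R2 had 8 to 18 counts in Vehicle and 8 to 13 with IL-4+IL-13. LTB4R and LTB4R2 each have 2 rows in the count table, and these values are of the first. The epidermal lipoxygenases ALOX12B and ALOXE3 were not called either, with log2 fold changes of -0.35 (SE 0.20, adjusted p = 0.633) and -0.21 (SE 0.23, adjusted p = 0.837) with IL-4+IL-13. Of 8 tested receptors for lipoxygenase products and resolvins, 0 were called. PPARA, a nuclear receptor for fatty acids, was lower under TGF-β in 6 of 6 batches (log2 fold change -0.32, SE 0.075, adjusted p = 0.0787), and LGR6 was lower with IL-4+IL-13 in 6 of 6 batches (log2 fold change -1.06, SE 0.40, adjusted p = 0.388), both short of the threshold.

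Over 10 lists of related eicosanoid and type 2 genes, 103 of 116 genes passed the count filter. With IL-4+IL-13, 3 were called as higher and 0 as lower, beside 0.228% and 0.143% of all rows. The median log2 fold change of the 103 was -0.065, beside -0.0077 for all rows. Under TGF-β and IL-6, 0 of the 103 were called, beside 0.143% and 0% of all rows. The medians of the 103 were -0.073 and -0.12, beside -0.012 and -0.013 for all rows. At an unadjusted p under 0.05 there were 21 of the 103 with IL-4+IL-13 (20.4%, beside 9.1% of all rows), 9 under TGF-β (8.74%, beside 7.29%) and 4 under IL-6 (3.88%, beside 4.77%), so that the last 2 shares were near those of all rows. DESeq2 called 8, 0 and 1, beside 1.02%, 0.858% and 0.528% of all rows. Outside the list of genes that IL-4 or IL-13 raise, 15 of 85 genes (17.6%) had such a p with IL-4+IL-13 and DESeq2 called 4: PLA2G4B, JMJD7-PLA2G4B, PTGS2 and PTGDR2. The rows of PLA2G4B and JMJD7-PLA2G4B can split the same reads, and they moved in opposite directions (edgeR log2 fold changes -4.42 and 3.80). The 3 genes called by edgeR were all in the list of 22 genes that IL-4 or IL-13 are known to raise together with ALOX15. Of that list, 18 genes were tested. All lists were written with earlier results of these data known, so the place of the 3 in it is not independent support. CCL26, the eosinophil chemokine eotaxin-3, went from 0 to 5 counts in Vehicle to 223 to 2047 with IL-4+IL-13 (log2 fold change 7.86, SE 0.60, adjusted p = 1.627e-06). CISH, an inhibitor of cytokine receptor signalling, went from 28 to 75 counts to 420 to 1251 (log2 fold change 4.40, SE 0.38, adjusted p = 7.073e-06). IL13RA2, the decoy receptor of IL-13, went from 781 to 9100 counts to 2333 to 14592 (log2 fold change 1.31, SE 0.17, adjusted p = 0.00077), with overlapping groups. Each of the 3 was higher in 6 of 6 batches. The other 15 tested genes of that list, SOCS1 (log2 fold change 0.58, adjusted p = 0.249) and POSTN (1.52, adjusted p = 0.224) among them, were not called. In the direct comparison of IL-4+IL-13 with TGF-β, 7 of the 103 were called, beside 1.18% of all rows. These were CCL26, CISH and IL13RA2 again, with PLA2G5, PTGDR2 and CYP1B1 as higher and PTGS2 as lower. Against IL-6 the 3 alone were called, beside 0.279% of all rows, and between TGF-β and IL-6 none of the 103, beside 0.0306%.

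**Figure D4:**
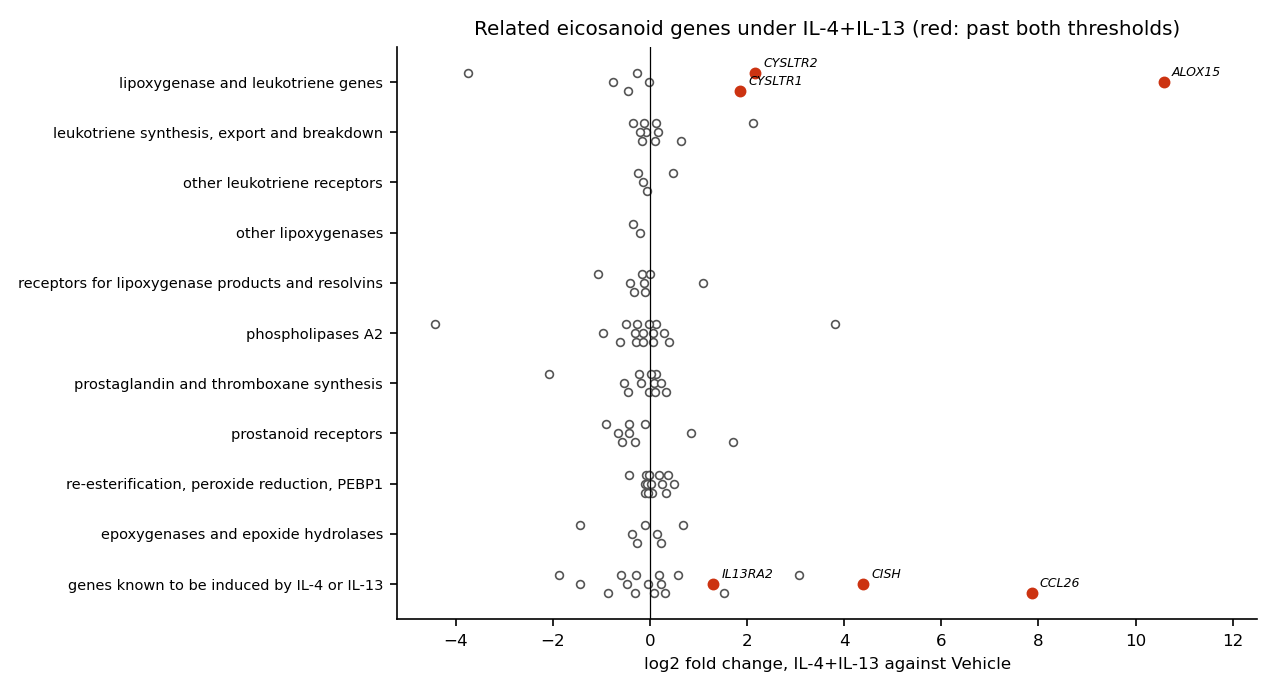
Fitted log2 fold changes of IL-4+IL-13 against Vehicle for the 8 genes and for 10 lists of related genes, with a point for each tested gene (6 libraries per group). Red points passed both thresholds: ALOX15, CYSLTR1, CYSLTR2, CCL26, CISH and IL13RA2. No gene of the other 9 lists is red.

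Enzymes and receptors of the neighbouring prostaglandin branch showed no call against Vehicle by edgeR, and 2 calls between IL-4+IL-13 and TGF-β. PTGS2, the inducible cyclooxygenase, had 27 to 175 counts in Vehicle and 5 to 55 with IL-4+IL-13 (log2 fold change -2.08, SE 0.57, adjusted p = 0.144), and within batches its difference ran from -4.48 in batch 1 to 0.053 in batch 4. PTGDS, the lipocalin-type prostaglandin D synthase, was lower under TGF-β in 6 of 6 batches (log2 fold change -0.50, SE 0.11, adjusted p = 0.0669). PTGDR2, the prostaglandin D2 receptor of type 2 lymphocytes and eosinophils, had 5 to 24 counts in Vehicle and 10 to 108 with IL-4+IL-13 (log2 fold change 1.70, SE 0.44, adjusted p = 0.101), higher in 6 of 6 batches. DESeq2 called PTGS2 (adjusted p = 0.00309) and PTGDR2 (adjusted p = 0.00934) against Vehicle. Against TGF-β, where the libraries held 48 to 277 counts, PTGS2 was lower in 6 of 6 batches (log2 fold change -2.73, SE 0.55, adjusted p = 0.00712). PTGDR2, with 0 to 17 counts under TGF-β, was higher in 5 of 6 batches (log2 fold change 2.09, SE 0.45, adjusted p = 0.0120).

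In phospholipid release and handling, 0 of 16 phospholipases A2 and 0 of 17 genes of arachidonate re-esterification and lipid peroxide reduction were called against Vehicle. PLA2G5, a secreted phospholipase A2, was called in the comparison of IL-4+IL-13 (14 to 79 counts) with TGF-β (2 to 36), higher in 6 of 6 batches (log2 fold change 1.82, SE 0.43, adjusted p = 0.0220). PLA2G4B missed the threshold with IL-4+IL-13 (log2 fold change -4.42, SE 1.04, adjusted p = 0.0733), while the readthrough gene JMJD7-PLA2G4B, which shares its exons, had 3.80 (SE 1.13, adjusted p = 0.221). Their rows can split the same reads, and the sum of both rows had a mean level of 9.01 ± 0.32 in Vehicle and 9.34 ± 0.29 with IL-4+IL-13 (log2 scale, SD, n = 6 each). ACSL1, which activates fatty acids, had a log2 fold change of 0.37 (SE 0.10, adjusted p = 0.162), and LPCAT2, which re-esterifies lysophospholipids, had -0.43 (SE 0.12, adjusted p = 0.176). Among 7 epoxygenases and epoxide hydrolases, CYP1B1, a cytochrome that also oxidises arachidonic acid, passed the p threshold against Vehicle in opposite directions with folds below the other threshold. It had a log2 fold change of 0.69 with IL-4+IL-13 (SE 0.075, adjusted p = 6.503e-05) and -0.42 under TGF-β (SE 0.075, adjusted p = 0.0163), each in 6 of 6 batches, and IL-4+IL-13 against TGF-β gave 1.11 (SE 0.076, adjusted p = 1.152e-07), a call. EPHX2, the soluble epoxide hydrolase, had 0.23 with IL-4+IL-13 (SE 0.099, adjusted p = 0.500).

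The genes whose pattern was most like that of ALOX15 were found by Pearson's r of batch-centred levels over the 24 libraries, among 15662 genes with a mean of at least 10 normalised counts. The 10 with the largest r were CISH (0.95), SERPINB11 (0.95), CCL26 (0.95), CD44 (0.94), CSN1S1 (0.94), PABIR2 (0.93), NABP1 (0.93), MMP28 (0.93), SMR3B (0.92) and APOLD1 (0.92). These values describe the separation of the 6 IL-4+IL-13 libraries from the other 18. Among those 18, the r of CISH with ALOX15 was 0.11, that of CD44 was 0.38 and that of MMP28 was 0.59, and none of the 6 that could be ranked stayed among the 10 genes most like ALOX15. The other 4, SERPINB11, CCL26, CSN1S1 and SMR3B, had a mean below 10 in those 18 libraries and could not be ranked. CD44, the hyaluronan receptor, had a log2 fold change of 1.69 with IL-4+IL-13 (SE 0.15, adjusted p = 8.943e-06). MMP28, a matrix metalloproteinase, had 2.60 (SE 0.36, adjusted p = 0.000815), and SERPINB11, a serpin, had 5.52 (SE 0.60, adjusted p = 6.503e-05). CSN1S1, a milk casein gene, had 0 counts in all 18 libraries outside IL-4+IL-13 and 5 to 687 counts within it.

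In batch 2, several of these genes had a low IL-4+IL-13 value together with ALOX15. ALOX15 had 4679 counts there, against 13505 to 16617 in the other batches. CISH had 420 counts, against 936 to 1251, SERPINB11 had 68, against 198 to 399, and CSN1S1 had 5, against 103 to 687. CCL26 had 288 counts in batch 2 and was lowest in batch 1, at 223.

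The 5 genes most like CYSLTR2 were KCNJ2 (r = 0.94), MUSK (0.91), MME (0.91), CLDN2 (0.90) and TMEM200A (0.89), over the same libraries. KCNJ2, an inward rectifier potassium channel, had a log2 fold change of 1.36 with IL-4+IL-13 (SE 0.20, adjusted p = 0.00113), and MME, the peptidase neprilysin, had 4.33 (SE 0.49, adjusted p = 0.000214). MUSK, a receptor tyrosine kinase, had 1.41 (SE 0.29, adjusted p = 0.0247). CLDN2 (log2 fold change 0.89, adjusted p = 0.209) and TMEM200A (0.39, adjusted p = 0.286) were not called. In the 18 libraries without IL-4+IL-13, KCNJ2 kept an r of 0.75 with CYSLTR2 and MME an r of 0.62. Between the members, r was 0.80 for ALOX15 with CYSLTR1, 0.79 for ALOX15 with CYSLTR2 and 0.80 for CYSLTR1 with CYSLTR2. Among the 18 libraries these were 0.16, -0.10 and 0.37.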

How the data were processed

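The authors deposited 1 table of raw counts per gene for 24 libraries of polyadenylated RNA. Per the labels, reads were trimmed with Trimmomatic 0.30 and placed on GRCh38.p14; the aligner, counter and strand setting are not given in the sources used here, and no strand-specific reading is possible. Counts were used as deposited. Rows of unannotated transcripts (13161 rows, 1.97% of counts) stayed in the fits. Rows with a total of at least 10 counts (29377 of 36468) were tested with edgeR 4.0.16 (quasi-likelihood, robust, TMM, batch and treatment as terms, R 4.3.3), with Benjamini-Hochberg adjustment over all of them. Standard errors were derived from the fold change and its F statistic. Levels are log2(normalised count + 1), with size factors of DESeq2 1.42.0. The study also used DESeq2, without giving its version. Differences in fold are on the fitted scale. Totals of 33342682 to 39817784 counts per library set the precision, and counts under 10 carry large counting error.

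Batch is given in the labels and pairs the samples. Deviations from group means correlated with a median r of 0.57 within batches (36 pairs, -0.046 to 0.82). Between batches the median was -0.16 (240 pairs, -0.58 to 0.58). Taking deviations from group means pulls the latter below 0 by construction, so its sign is not evidence of pairing. The 6 libraries of a group came from separate differentiations of 1 line. With batch as a term, the p-values measure how far treatment differences varied from batch to batch. They do not measure the spread of levels between differentiations. No pair of libraries held identical values (0 pairs). Transcript lengths came from GENCODE release 44, and positions and promoters from RefSeq. The code was tested on simulated data.

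The members and lists were chosen with earlier results of these data known, and the study itself names ALOX15, CYSLTR1, CYSLTR2, CCL26 and IL13RA2. Its supplementary list of genes behind the separation of treatments in principal components also holds CISH, SERPINB11, CD44, CSN1S1, NABP1, MMP28, SMR3B and APOLD1. MME, KCNJ2, POSTN, PLA2G4B and JMJD7-PLA2G4B are in that list too. Genes named in the text are the 8 members, listed genes that were called against Vehicle, up to 2 genes with the smallest p from lists without a call, and the genes most like ALOX15 (10) and CYSLTR2 (5); SOCS1, POSTN, LTC4S, MGST2, LTB4R2, the marker genes and the related genes called against TGF-β were added after their values were seen. Alternatives were other size factors, count filters, DESeq2, no batch term, the compared groups alone, the first row of each symbol, another pseudocount and leaving out each batch or the Vehicle library of batch 2. Leaving out batches 1 and 2, leaving out the IL-4+IL-13 library of batch 2, leaving out the Vehicle library of batch 4 alone or with that of batch 2, exchanging the batch numbers of these 2, and summing the ALOX5 rows were added after seeing the data, as were all alternatives for the related lists. The result of 1 marker list is not reported here.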

Additional observations from a re-analysis of the deposited data

Results flagged for a closer look

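Among the 56 sets of 6 libraries or 6 within-batch differences tested for a single distant value with Dixon's criterion, 5 were flagged, and chance flags about 1 in 20. Under IL-4+IL-13 in batch 2, ALOX15 had a level of 12.13 (4679 counts), and the nearest library had 13.71. The within-batch difference of ALOX15 between IL-6 and Vehicle was 3.27 in batch 6, where Vehicle had 0 counts and IL-6 had 9, and the nearest difference was 0.047. ALOX15B had a level of 1.51 in batch 4 of IL-4+IL-13, which stands for 2 counts where the other 5 libraries had 0. ALOX5 had a level of 3.58 (11 counts) in batch 6 of IL-4+IL-13, against 6.14 in the nearest library. LTA4H had a level of 11.57 (3232 counts) in batch 1 of IL-4+IL-13, against 11.31 in the nearest library.

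The effects of the treatments differed by direct tests in edgeR for 3 genes. IL-4+IL-13 exceeded TGF-β by 11.01 on the log2 scale for ALOX15, by 3.01 for CYSLTR1 and by 2.53 for CYSLTR2. IL-4+IL-13 exceeded IL-6 by 10.99, 1.92 and 2.56 for the same genes.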

How the results depend on the processing

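ALOX15 under IL-4+IL-13 stayed called under each alternative, with a log2 fold change of 10.28 to 10.95 over the fits that left out libraries. The number of the 8 genes called changed by over 1.5 times in 4 cases. With no replicate block (no batch term), 1 member was called against Vehicle and 1 against IL-6, and with only the 2 groups compared 1 was called against Vehicle; in each case ALOX15 remained. DESeq2 called 1 member under TGF-β, CYSLTR1. A change from 3 called genes to 2 lies outside that rule. CYSLTR2 lost its call against Vehicle without batch 1, 3, 4, 5 or 6, and without the Vehicle library of batch 4. Its calls against TGF-β and IL-6 also ended in some fits without 1 batch. Without the block, IL-4+IL-13 called 13 rows against Vehicle in place of 109, and TGF-β 0 in place of 42; the 2-group fits called 25 and 0, and DESeq2 called 299 and 252. Leaving out a batch gave 60 to 122 and 1 to 40 calls, the 1 without batch 3 or 5. Of the related lists, DESeq2 called 8 genes under IL-4+IL-13 and 1 under IL-6 (PLA2G4B). Exchanging the batch numbers of the Vehicle libraries of batches 2 and 4 gave 6 (PLA2G4B, PTGS2 and POSTN added). Leaving out batch 2 or its Vehicle library gave 5 (PLA2G4B and POSTN added), and leaving out batches 1 and 2 gave 5 (JMJD7-PLA2G4B and POSTN added) and 1 under TGF-β (PTGS2). Without the IL-4+IL-13 libraries, 0 of the 10 genes most like ALOX15 stayed, of which 4 had no value there because they fell below the count minimum. The causes were not tested.

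The reversals were all of log2 fold changes that were not called. ALOX15B under TGF-β was 0.10 with no replicate block. Without batches 1 and 2, ALOX5 under TGF-β was -0.11 and ALOX15B under IL-6 was 0.039. Without the Vehicle libraries of batches 2 and 4, ALOX5 was -0.079 under TGF-β and -0.029 under IL-6, and with both ALOX5 rows summed ALOX5 under IL-6 was -0.024. Leaving out 1 batch or 1 library gave ranges of -0.85 to 0.093 (TGF-β) and -0.82 to 0.087 (IL-6) for ALOX15, of -1.18 to 0.076 and -1.19 to 0.038 for ALOX15B, and of -0.18 to 0.067 and -0.23 to 0.11 for ALOX12. The ranges were -0.12 to 0.14 and -0.064 to 0.22 for ALOX5, -0.10 to 0.0081 and -0.077 to 0.037 for LTA4H, -0.067 to 0.0057 for LTA4H under IL-4+IL-13, and -0.21 to 0.017 for CYSLTR1 under IL-6.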
